A study of Canis lupus familiaris with 12 samples.

Results

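The nuclear genes for the subunits of the respiratory chain and of ATP synthase were followed in C2 cells, a canine mast cell tumour line, during exposure to masitinib. Members were all genes whose symbol in the platform annotation begins NDUFA, NDUFB, NDUFC, NDUFS or NDUFV and a digit (complex I), is SDHA to SDHD (complex II), begins UQCR (complex III), begins COX4 to COX8 and a letter A to C (complex IV), or begins ATP5 (complex V). This gave 60 of the 15115 genes with a symbol, of which 34 belonged to complex I, 4 to complex II, 7 to complex III, 5 to complex IV and 10 to complex V. Each gene was read by the brightest of its probe sets over all arrays, and the 60 genes were covered by 114 probe sets, with 36 genes having more than 1.

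The KIT gene of this line, which encodes the receptor of stem cell factor, holds an internal tandem duplication next to the membrane-spanning part, and the kinase signals without its ligand. Masitinib, a small-molecule blocker of KIT and of a few other tyrosine kinases, was added to the medium at 100 nM. RNA from 3 flasks was hybridised to Affymetrix Canine Genome 2.0 arrays at each of 4 times, which were 0 h (control, taken before the drug was added) and 12, 24 and 72 h of masitinib, for 12 arrays in all. All flasks came from 1 cell line, so the p-values reflect no more than the spread among these flasks, which may be technical. No untreated flask of a later time was analysed here, and an effect of the drug cannot be told apart from one of culture time.

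The respiratory chain passes electrons from NADH, which enter at complex I, and from succinate, which enter at complex II, through ubiquinone to complex III, over cytochrome c to complex IV and on to oxygen. Complexes I, III and IV pump protons across the inner mitochondrial membrane, and ATP synthase (complex V) lets them back to make ATP. Most subunits are encoded in the nucleus and imported, whereas a few of complexes I, III, IV and V are encoded in mitochondrial DNA. None of the 26 symbols searched for these mitochondrial genes matched a named probe set (0 of 26), so the values below concern nuclear genes only.

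The array medians lay between 5.89 and 5.95 on the log2 scale, arrays of the same time correlated at 0.9952 to 0.9979, and no 2 arrays held identical values. All 10 measured mast cell markers had a mean at 0 h above the median probe set (5.94), with levels from 6.16 to 14.3, and 4 of them rose at 72 h. Among other cell types, 3 of 6 T cell genes (4.54 to 6.68) had a mean at 0 h above the median probe set. The same held for 0 of 4 B cell (3.51 to 5.88), 2 of 5 macrophage (4.26 to 6.25) and 1 of 5 fibroblast (3.92 to 6.06) genes. In these lists, CD3D of the T cell list fell (-1.11) and CD79A of the B cell list rose (0.64) at 72 h, and no other gene passed at that time. Of 4 epithelial genes (3.12 to 8.72), EPCAM and KRT18 rose at 12 h (0.81 and 0.78), and at 72 h both fell (-1.54 and -1.15) while CDH1 rose (0.63) and KRT8 did not pass (-0.29). Of 5 endothelial genes (4.26 to 9.24), KDR, a growth factor receptor, rose at 24 and 72 h (1.68 and 2.54) and the other 4 did not pass. The part of these shifts in the results below was not tested. In bulk RNA, fewer cells of a type and less RNA per cell cannot be told apart.

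A gene was called changed when limma's moderated test, adjusted by Benjamini-Hochberg over all probe sets, gave a p under 0.001 and the change exceeded 1.5-fold (0.585 on the log2 scale). By this rule 1 member rose and 0 fell at 12 h, 0 rose and 2 fell at 24 h, and 0 rose and 9 fell at 72 h, all against 0 h. Over all genes, 4.26% rose and 6.30% fell at 12 h, 8.01% rose and 10.0% fell at 24 h, and 8.73% rose and 11.0% fell at 72 h. The 9 falls at 72 h were 15.0% of the members, which is close to the share over all genes. Where a count was 0, an unadjusted limma p under 0.05 with no fold limit was reached by 13 members on the low side at 12 h and by 6 on the high side at each of 24 and 72 h, and an analysis of variance with q-values also called 0.

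Most shifts at 72 h were downward and under 1.5-fold. With the fold limit left out, 27 of the 60 members (45.0%) were lower and 1 was higher at 72 h at an adjusted p under 0.001, beside 15.6% and 12.8% of all genes. At 24 h these counts were 11 lower and 4 higher (14.4% and 12.4% of all genes), and at 12 h they were 3 lower and 4 higher (10.0% and 7.60%). The members' median log2 changes were -0.015, -0.145 and -0.274 at 12, 24 and 72 h, beside 0.0106, 0.0333 and 0.0235 over all genes. The mean was below that at 0 h in 32, 42 and 45 of the 60 members at the 3 times.

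The arrays themselves separated as follows. At 72 h, all 3 arrays lay below all 3 arrays of 0 h in 42 members and above them in 7, where 26.4% and 26.3% of all genes did so. At 24 h this held for 38 and 8 members (24.8% and 28.2% of all genes), and at 12 h for 18 and 14 (22.9% and 22.1%). The lowest mean of the 4 times was at 72 h in 37 members and at 0 h in 9, and the highest was at 0 h in 26 and at 12 h in 21. In each array, the median over the 60 genes of the difference from the 0 h mean lay between -0.0181 and 0.0122 at 0 h, between -0.0328 and 0.0361 at 12 h, between -0.168 and -0.113 at 24 h and between -0.307 and -0.248 at 72 h, so the arrays of 24 and 72 h did not overlap with earlier ones.

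**Figure D1:**
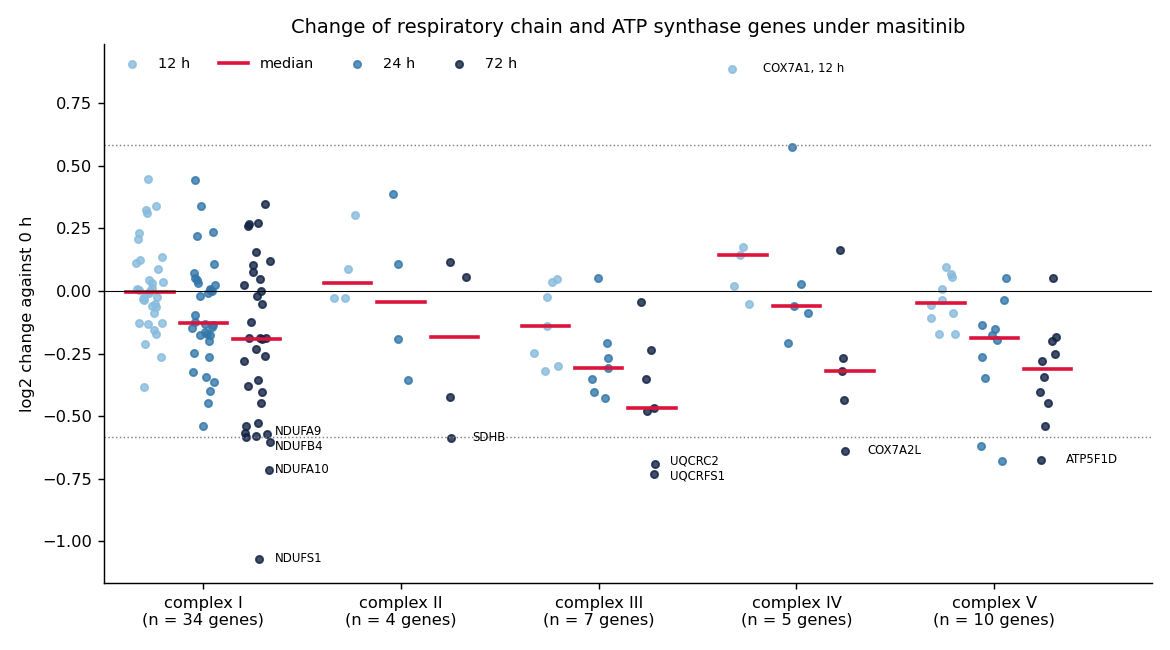
Log2 change against 0 h (vertical axis) of each member at 12, 24 and 72 h, by complex (horizontal axis), with 1 point per gene, the median of each column in red and dotted lines at 1.5-fold. Genes called at 72 h are named, with COX7A1 at 12 h. All 7 points of complex III lie below 0 at 72 h, while those of complex I run from -1.07 to 0.35.

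These changes are on the deposited scale, after quantile normalisation, where the array medians still ran from 5.89 to 5.95 and those of 0 h were the lowest. When the arrays were instead scaled to 36 probe sets for the bacterial poly-A control transcripts, an alternative chosen after seeing the data, the median of all probe sets moved by -0.28, -0.57 and -0.44 at 12, 24 and 72 h. On that scale 3, 44 and 42 members fell, a count that was not made over all genes. The member medians were -0.308, -0.748 and -0.745. Every change below is therefore relative to the other transcripts of the same array.

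Complex I oxidises NADH in its matrix arm and pumps protons in its membrane arm. At 72 h, 4 of its 34 genes fell (11.8%, close to the 11.0% of all genes) and 30 did not pass. The median log2 change was -0.19 (-0.00362 at 12 h and -0.129 at 24 h). Without the fold limit, 13 were lower and 1 was higher (38.2% and 2.94%, beside 15.6% and 12.8% of all genes). The genes ran from -1.07 for NDUFS1 to 0.35 for NDUFA3.

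NDUFS1 encodes the largest iron-sulfur subunit of the NADH-oxidising arm. Its log2 values were 11.80, 11.79 and 11.86 before treatment, 11.51, 11.57 and 11.57 at 12 h, 11.58, 11.35 and 11.47 at 24 h and 10.66, 10.73 and 10.83 at 72 h. The 3 arrays of 72 h lay below all 9 others. NDUFS1 fell by 1.07 (SE 0.0701, adjusted p = 5.28e-08), to 0.476 of its level at 0 h, and was the only member past 2-fold against 0 h at any time. Against 24 h it fell by 0.73 (SE 0.0701, adjusted p = 1.41e-05), with an adjusted p of 0.00105 when only these times were fitted. The gene has 4 probe sets. The other bright ones gave log2 changes of -0.17, -0.25 and -0.98 and of -0.29, -0.42 and -1.16 at 12, 24 and 72 h, whereas the dimmest, with a mean of 9.13, gave -0.28, -0.23 and -0.10.

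**Figure D2:**
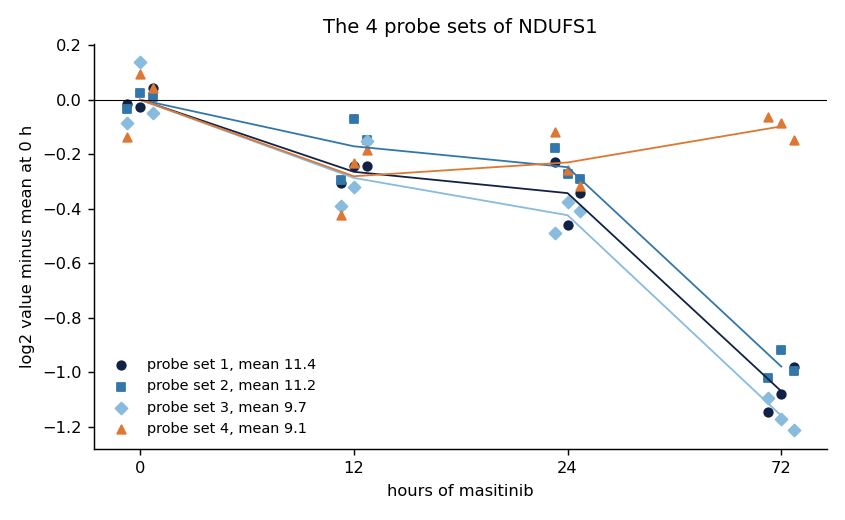
Log2 value minus the mean at 0 h (vertical axis) of the 4 probe sets of NDUFS1 by hours of masitinib (horizontal axis), with 1 point per array and lines through the means of 3. Probe sets 1 to 3 drop between 24 and 72 h to changes of -0.98 to -1.16, and probe set 4 lies at -0.10.

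NDUFS1 is 1 of 6 measured core subunits of the matrix arm, and the differences of these 6 genes at 72 h ran from -1.07 to 0.26. NDUFV1, which binds NADH and the flavin, was shifted by 0.23, -0.10 and -0.54 at 12, 24 and 72 h, and its partner NDUFV2 by -0.16, -0.14 and -0.23. NDUFS3, a core protein of the ubiquinone-facing part, gave 0.033, -0.12 and -0.45. NDUFS7, which holds the iron-sulfur cluster next to ubiquinone, gave -0.065, -0.16 and 0.26, so that its mean was above 0 h at 72 h. None of these 4 passed the rule, although NDUFV1 (SE 0.0648, adjusted p = 1.61e-05) and NDUFS3 (SE 0.0615, adjusted p = 5.08e-05) were past the adjusted p at 72 h.

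NDUFS8 carries further iron-sulfur clusters on the way to ubiquinone. Its values were 11.31, 11.43 and 11.38 before treatment, 11.74, 11.66 and 11.68 at 12 h, 11.41, 11.36 and 11.41 at 24 h and 10.74, 10.77 and 10.87 at 72 h. The arrays of 12 h were the highest and those of 72 h the lowest, with no overlap between them and the rest. The difference from 0 h was 0.32 at 12 h (SE 0.0599, adjusted p = 0.00109) and -0.58 at 72 h (SE 0.0599, adjusted p = 3.74e-06), the latter just short of 1.5-fold. Against 24 h, NDUFS8 fell by 0.60 (SE 0.0599, adjusted p = 1.82e-05), a call lost with cyclic loess (-0.57) and without replicate 1 of 72 h (-0.58). Against 0 h it passed at 72 h without replicate 1 of 0 h (-0.61) or replicate 3 of 72 h (-0.62).

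Of the 26 accessory subunits, which surround the core, 3 fell at 72 h, as did 11.0% of all genes. NDUFA10, of the membrane arm, read 10.88, 10.99 and 10.91 before treatment, 11.20, 11.04 and 11.17 at 12 h, 11.00, 10.97 and 10.97 at 24 h and 10.17, 10.15 and 10.32 at 72 h. Its first 3 times lay within 10.88 to 11.20 and the arrays of 72 h lay below all of them. NDUFA10 fell by 0.72 against 0 h (SE 0.0676, adjusted p = 1.65e-06) and by 0.77 against 24 h (SE 0.0676, adjusted p = 6.95e-06), and its second probe set read -0.77 at 72 h.

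NDUFB4, another membrane arm subunit, had an earlier course, with values of 13.15, 13.15 and 13.22 before treatment, 12.88, 12.76 and 12.73 at 12 h, 12.68, 12.64 and 12.59 at 24 h and 12.51, 12.54 and 12.66 at 72 h. All 9 treated arrays lay below the 3 of 0 h. Its log2 changes were -0.39, -0.54 and -0.60, of which that at 72 h passed (SE 0.0644, adjusted p = 5.22e-06). NDUFA9, which sits where the arms join, read 11.83, 11.93 and 11.83 before treatment, 11.74, 11.69 and 11.76 at 12 h, 11.52, 11.47 and 11.50 at 24 h and 11.24, 11.29 and 11.31 at 72 h. Each time lay below the one before without overlap, and NDUFA9 fell by 0.59 at 72 h (SE 0.0555, adjusted p = 1.71e-06), just past 1.5-fold. Both calls stood near the fold limit and were lost with cyclic loess normalisation (-0.54 for each) and without replicate 1 of 72 h (-0.57 for each), that of NDUFB4 also without replicate 3 of 0 h (-0.58) and that of NDUFA9 without replicate 2 of 0 h (-0.55). The second probe set of NDUFA9 gave -0.17, -0.43 and -0.62, the last past both limits (SE 0.0523, adjusted p = 5.77e-07). NDUFB4 has 1 probe set.

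Other accessory subunits stood just short of the rule at 72 h by the brightest probe set, namely NDUFA8 at -0.57, NDUFA5 at -0.57 and NDUFV3 at -0.53. The second probe set of NDUFV3 (mean 9.91) gave 0.25, 0.24 and -0.25 at 12, 24 and 72 h. NDUFB5, NDUFA6 and NDUFS6 were between -0.40 and -0.35, each with an adjusted p under 0.001. A further 8 (NDUFB9, NDUFA2, NDUFC1, NDUFA11, NDUFB3, NDUFB6, NDUFB10 and NDUFB8) lay between -0.28 and -0.053. NDUFS5, NDUFS4, NDUFA12, NDUFC2 and NDUFA13 lay between -0.022 and 0.12.

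A small group ran the other way. NDUFA3, a small membrane subunit, read 10.96, 11.02 and 10.95 before treatment, 11.42, 11.45 and 11.41 at 12 h, 11.43, 11.39 and 11.44 at 24 h and 11.35, 11.35 and 11.28 at 72 h. All 9 treated arrays lay above those of 0 h, and the differences of 0.45, 0.44 and 0.35 were past the adjusted p at each time (2.74e-05, 1.73e-05 and 1.39e-04) and under 1.5-fold. NDUFA7 gave 0.31, 0.34 and 0.27, NDUFB11 0.34, 0.24 and 0.16 and NDUFB7 -0.035, 0.22 and 0.27. With the poly-A scaling these were 0.155, -0.16 and -0.126 for NDUFA3, 0.0201, -0.264 and -0.204 for NDUFA7, 0.0457, -0.366 and -0.315 for NDUFB11 and -0.328, -0.385 and -0.198 for NDUFB7. The sign of all 4 thus turned at 24 and 72 h, and at 12 h it was kept. NDUFA4 and its paralogue NDUFA4L2, assigned by later work to complex IV, stayed between -0.0095 and 0.13 at all times, and NDUFA4L2 was dim, with a mean of 4.87 at 0 h.

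Complex II, succinate dehydrogenase, is also an enzyme of the citrate cycle and pumps no protons. Of its 4 genes, 1 fell at 72 h, beside 11.0% of all genes, and the others did not pass. SDHB, the iron-sulfur subunit, read 11.31, 11.33 and 11.30 before treatment, 11.31, 11.31 and 11.24 at 12 h, 10.96, 10.96 and 10.94 at 24 h and 10.70, 10.77 and 10.71 at 72 h. The arrays of 0 and 12 h overlapped, those of 24 h were lower and those of 72 h lower again. SDHB fell by 0.59 at 72 h (SE 0.0525, adjusted p = 9.98e-07), just past 1.5-fold, after -0.026 at 12 h and -0.36 at 24 h. This call was lost with cyclic loess normalisation (-0.54), without replicate 1 (-0.57) or 3 (-0.58) of 72 h and without replicate 2 of 0 h (-0.58).

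SDHA, the flavoprotein that binds succinate and forms the catalytic pair with SDHB, read 12.50, 12.51 and 12.52 before treatment, 12.78, 12.83 and 12.82 at 12 h, 12.96, 12.84 and 12.89 at 24 h and 12.52, 12.59 and 12.58 at 72 h. Its arrays of 12 and 24 h were above those of 0 h, where those of SDHB were level or below. The differences for SDHA were 0.30 (SE 0.0558, adjusted p = 0.00101), 0.39 (SE 0.0558, adjusted p = 8.68e-05) and 0.054 (SE 0.0558, adjusted p = 0.496), all under 1.5-fold, and the difference of 24 h was -0.215 with the poly-A scaling. Of the membrane anchors, SDHC gave -0.027, -0.19 and -0.42 by its brightest probe set, with an adjusted p of 2.35e-05 at 72 h. Its probe set of mean 11.86 gave 0.058, -0.065 and -0.34, and that of mean 11.54 gave 0.16, 0.14 and -0.19. SDHD gave 0.088, 0.11 and 0.11. Whether the 4 genes differ from each other in their change was not tested.

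**Figure D3:**
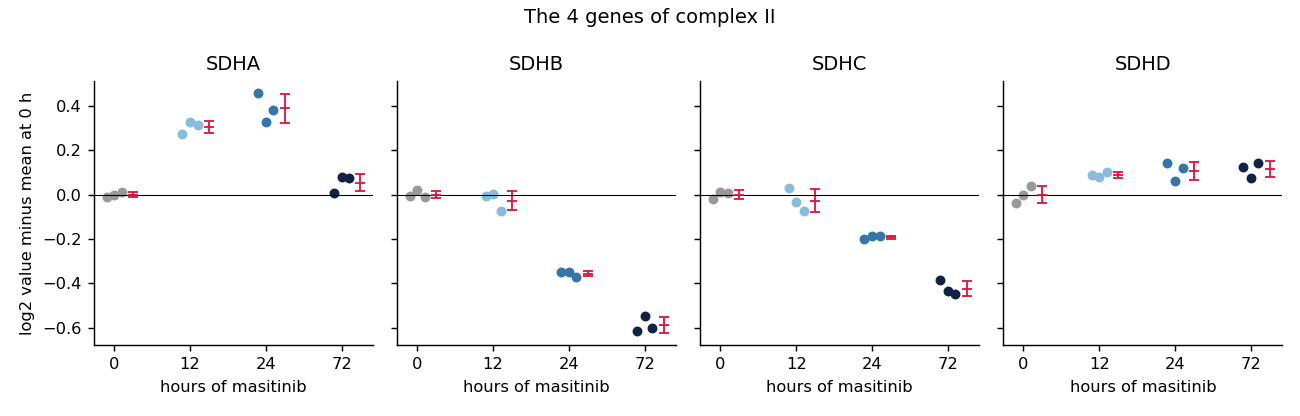
Log2 value minus the mean at 0 h (vertical axis, shared) of SDHA, SDHB, SDHC and SDHD by hours of masitinib (horizontal axis), with 1 point per array and the mean with its SD over 3 arrays in red. By the brightest probe set of each gene, SDHA peaks at 24 h (0.39) and is near 0 at 72 h. SDHB and SDHC end at -0.59 and -0.42, and SDHD ends at 0.11.

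Complex III hands electrons from ubiquinol to cytochrome c. All 7 of its genes had a mean below that of 0 h at 72 h, with a median of -0.466. By the rule 2 fell (11.0% of all genes did) and 5 did not pass. Without the fold limit, 5 were lower at an adjusted p under 0.001 (15.6% of all genes). Its median was also below 0 at 12 h (-0.139) and 24 h (-0.308). The median in each array was -0.41 to -0.464 at 72 h and -0.021 to 0.00783 at 0 h.

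UQCRFS1, the Rieske iron-sulfur protein, read 12.40, 12.46 and 12.32 before treatment, 12.27, 12.23 and 12.26 at 12 h, 12.02, 12.02 and 12.08 at 24 h and 11.54, 11.83 and 11.61 at 72 h. Its arrays stepped down at each time without overlap. UQCRFS1 fell by 0.73 at 72 h (SE 0.0743, adjusted p = 3.16e-06), and its second probe set read -0.71. UQCRC2, a core protein, read 11.68, 11.67 and 11.65 before treatment, 11.78, 11.66 and 11.71 at 12 h, 11.42, 11.37 and 11.41 at 24 h and 11.05, 10.86 and 11.03 at 72 h. Here the arrays of 12 h overlapped with those of 0 h and the later ones lay below. UQCRC2 fell by 0.69 (SE 0.0642, adjusted p = 1.42e-06), and its partner UQCRC1 gave -0.026, -0.21 and -0.48. The second probe set of UQCRC1 gave 0.074, -0.13 and -0.62, the last past both limits (SE 0.0735, adjusted p = 1.36e-05).

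Among the small accessory subunits, UQCR11, UQCR10 and UQCRQ were lower from 12 h on. UQCR11 gave -0.25, -0.43 and -0.47, UQCR10 -0.32, -0.31 and -0.35 and UQCRQ -0.30, -0.40 and -0.23. By its brightest probe set (mean 13.9), UQCRH, the hinge protein that touches cytochrome c1, gave 0.034, 0.052 and -0.045. The last was the smallest difference of the complex at 72 h by the brightest probe sets. The UQCRH probe set of mean 12.17 gave 0.29, 0.28 and -0.19, and that of mean 12.03 gave 0.28, 0.28 and -0.13. Between 24 and 72 h these shifted by -0.46 and -0.41, under 1.5-fold (limma adjusted p = 6.29e-04 and 1.69e-04). The dimmest (mean 6.84) gave 0.0022, 0.12 and 0.056.

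Complex IV, cytochrome c oxidase, reduces oxygen to water. The symbol rule found 5 of its genes, of which 1 rose at 12 h and 1 fell at 72 h (4.26% and 11.0% of all genes). COX7A2L, a relative of the COX7A subunits that links complexes III and IV into supercomplexes, read 11.06, 11.12 and 11.14 before treatment, 11.17, 11.11 and 11.10 at 12 h, 10.89, 10.92 and 10.89 at 24 h and 10.45, 10.43 and 10.52 at 72 h. The arrays of 0 and 12 h overlapped and those of 24 and 72 h lay below in turn. COX7A2L fell by 0.64 at 72 h (SE 0.0546, adjusted p = 6.21e-07), and its second probe set gave -0.81.

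COX7A1, the subunit form known from heart and skeletal muscle, was the only member that rose in any comparison with 0 h. Its values were 6.69, 6.91 and 6.86 before treatment, 7.63, 7.70 and 7.80 at 12 h, 7.47, 7.35 and 7.37 at 24 h and 6.27, 6.37 and 6.53 at 72 h. The arrays of 12 h were the highest, those of 24 h lay between them and 0 h, and those of 72 h were the lowest, with no overlap between times. COX7A1 rose by 0.89 at 12 h (SE 0.0836, adjusted p = 3.80e-06). It stood at 0.58 at 24 h (SE 0.0836, adjusted p = 9.48e-05) and -0.43 at 72 h (SE 0.0836, adjusted p = 9.00e-04), both under 1.5-fold (without replicate 2 or 3 of 0 h or of 24 h, the value at 24 h was 0.59 to 0.62 and passed), and it fell by 1.01 between 24 and 72 h (SE 0.0836, adjusted p = 4.36e-06). The poly-A scaling gave differences of 0.596, -0.0274 and -0.905 at the 3 times. The other tissue-restricted form, COX6A2, was dim (mean 5.86 at 0 h) and gave -0.053, 0.029 and 0.16, and the general forms COX5B and COX8A gave -0.27 and -0.32 at 72 h.

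ATP synthase turns a ring of c subunits in the membrane, which drives a central stalk inside the F1 head. At 24 h 2 of its 10 genes fell and at 72 h 1 did, beside 10.0% and 11.0% of all genes. The medians were -0.0476, -0.186 and -0.313 at 12, 24 and 72 h. ATP5F1D, the delta subunit of the central stalk, read 11.62, 11.75 and 11.71 before treatment, 11.58, 11.47 and 11.52 at 12 h, 10.99, 11.05 and 11.00 at 24 h and 10.98, 10.98 and 11.11 at 72 h. The arrays of 24 and 72 h overlapped with each other and lay below all earlier ones. ATP5F1D fell by 0.68 at 24 h (SE 0.0628, adjusted p = 1.50e-06) and by 0.68 at 72 h (SE 0.0628, adjusted p = 1.42e-06).

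The other parts of the F1 head gave differences of the same sign at 72 h, with -0.54 for the gamma subunit ATP5F1C (SE 0.0585, adjusted p = 6.13e-06), -0.40 for the alpha subunit ATP5F1A (SE 0.0615, adjusted p = 1.32e-04) and -0.20 for the beta subunit ATP5F1B (SE 0.0506, adjusted p = 0.00606). None of these passed 1.5-fold. The second probe sets gave -0.55 for ATP5F1A (limma adjusted p = 1.90e-06) and -0.37 for ATP5F1B (limma adjusted p = 1.01e-04), also under 1.5-fold. ATP5PO, of the peripheral stalk, gave -0.19, and ATP5J2, a small membrane subunit, gave -0.28. ATP5IF1, which is an inhibitor of the enzyme and no subunit, gave 0.10, 0.053 and 0.054.

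The c subunit is made from 3 genes whose mature protein is the same. ATP5MC1 read 12.33, 12.41 and 12.45 before treatment, 12.28, 12.18 and 12.22 at 12 h, 11.80, 11.80 and 11.74 at 24 h and 12.02, 12.05 and 12.10 at 72 h. Its arrays of 24 h were the lowest and those of 72 h lay between them and 12 h. ATP5MC1 fell by 0.62 at 24 h (SE 0.0581, adjusted p = 1.76e-06) and stood at -0.34 at 72 h (SE 0.0581, adjusted p = 3.02e-04). ATP5MC2 gave -0.057, -0.26 and -0.25, and ATP5MC3 gave -0.038, -0.17 and -0.45, so the lowest mean was at 24 h for ATP5MC1 and ATP5MC2 and at 72 h for ATP5MC3.

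**Figure D4:**
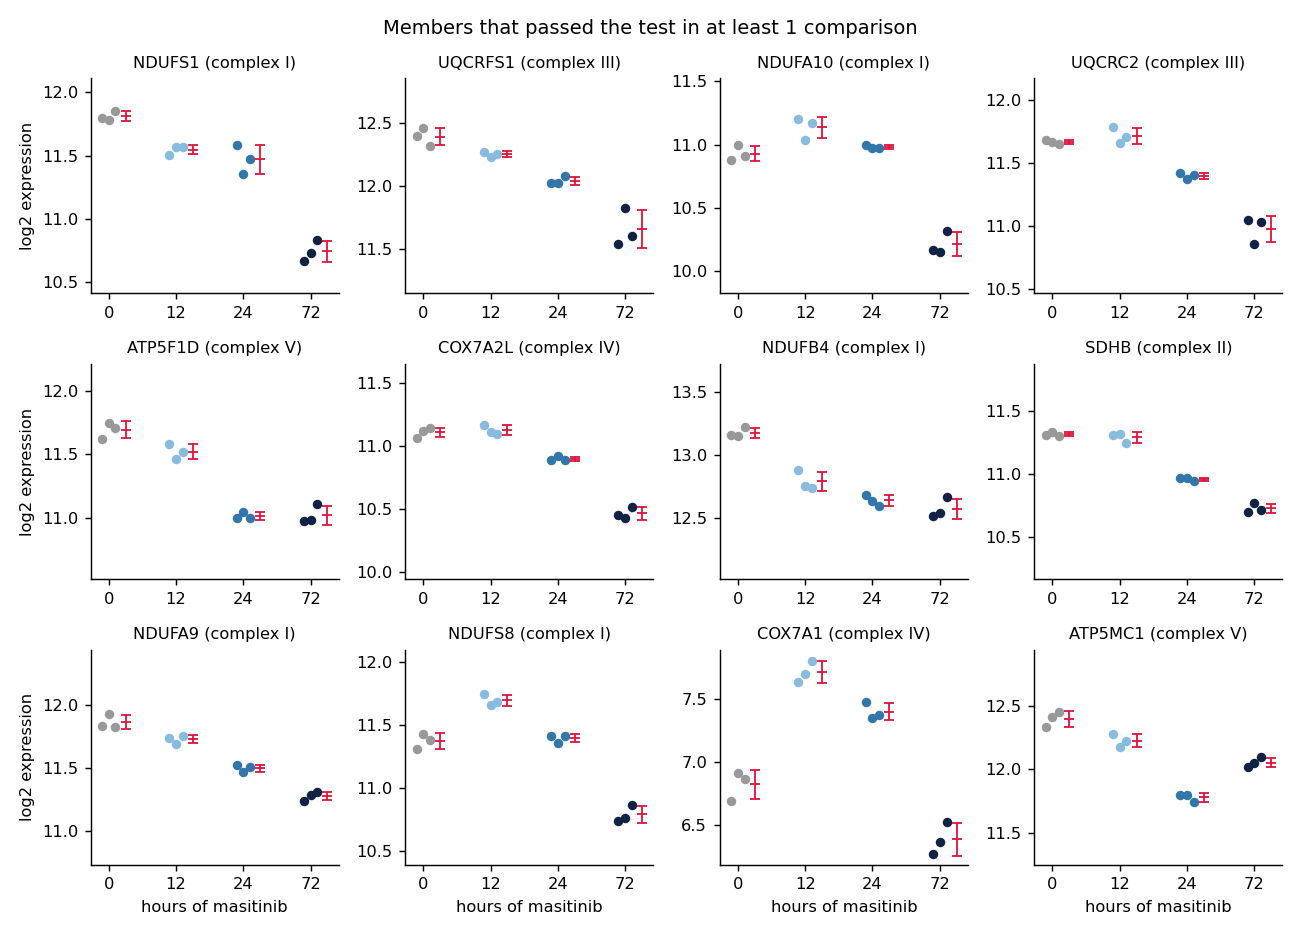
Log2 expression (vertical axis, same span in each panel) of the 12 members that passed the test in at least 1 comparison, by hours of masitinib (horizontal axis), with 1 point per array and the mean with its SD over 3 arrays in red. NDUFA10 and NDUFS8 drop after 24 h, ATP5F1D is level between 24 and 72 h, and COX7A1 is highest at 12 h.

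Between the treated times, 0 members rose and 0 fell from 12 to 24 h (1.41% and 3.10% of all genes), with an unadjusted limma p under 0.05 in 1 member on the high and 32 on the low side and 0 calls by the analysis of variance. From 24 to 72 h, 4 fell and 0 rose (1.81% and 1.96% of all genes). The falls were those of COX7A1, NDUFA10, NDUFS1 and NDUFS8, and the analysis of variance also called 4 falls. On the high side, 5 members reached an unadjusted limma p under 0.05 and the analysis of variance called 0 rises. Comparisons with 0 h share its 3 arrays, and those with 24 h share the same arrays on both sides, so they are not independent of each other.

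Second probe sets gave a check on single probes. Of the 33 members with a second probe set above the median brightness, this one was lower than the first in 23 and higher in 10 at 72 h, and the medians were -0.319 for the first and -0.366 for the second. NDUFC1 gave -0.19 at 72 h for the first and -0.58 for the second. NDUFB6 gave -0.054, -0.20 and -0.19 at the 3 times for the first and 0.29, 0.39 and -0.34 for the third.

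Some subunits and carriers of the same chain have symbols outside the rule. The list made for these had 9 measured genes, of which 1, ATP5IF1, is also a member by the rule. CYC1, cytochrome c1 of complex III, gave -0.57, -1.16 and -1.38 at the 3 times and fell at 24 h and at 72 h, at the latter with SE 0.0678 and adjusted p = 3.84e-09. CYCS, the mobile carrier cytochrome c, fell at all 3 times (-1.45, -1.72 and -1.48). NDUFAB1, the acyl carrier protein of complex I, fell at 24 and 72 h (-0.54, -0.70 and -0.80). HIGD1A, a small inner membrane protein that associates with complex IV, fell at all 3 times (-1.35, -1.11 and -1.08). COX4I1, a main subunit of complex IV, gave 0.091, 0.075 and -0.049, COX4I2 -0.037, 0.081 and 0.12, HIGD2A 0.21, 0.27 and 0.20 and HIGD1C 0.014, -0.30 and 0.10, none of which passed, and ATP5IF1, also on this list, is given above.

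Assembly factors insert and mature the subunits without staying in the complex. Of 42 measured assembly factors, 0 rose and 11 fell at 12 h, 2 rose and 18 fell at 24 h, and 2 rose and 17 fell at 72 h, with medians of -0.299, -0.483 and -0.539. Over all genes, 4.26%, 8.01% and 8.73% rose and 6.30%, 10.0% and 11.0% fell at these times. The largest falls at 72 h were in NDUFAF4 (-1.77, -1.75 and -1.53 at the 3 times), NDUFAF2 (-1.19, -2.13 and -1.44) and NDUFAF5 (-0.51, -0.91 and -1.04), all for complex I, and TTC19 (-0.83, -1.45 and -1.35), for complex III. COX17, a copper chaperone of complex IV, and COA5, another complex IV factor, rose at 24 and 72 h, by 0.62 and 0.66 at 72 h, where the poly-A scaling left 0.15 and 0.191.

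Genes for the upkeep and transcription of mitochondrial DNA, which encodes the remaining subunits, fell in 4, 4 and 5 of 9 cases at 12, 24 and 72 h, with 0 rises. For this list and the others of this paragraph, the shares of all genes were 6.30%, 10.0% and 11.0% for falls. For rises they were 4.26%, 8.01% and 8.73%. TFAM, the packaging and transcription factor, gave -1.17, -1.72 and -1.55, TFB1M -0.77, -1.05 and -1.01, SSBP1, the single-strand binding protein, -0.48, -0.69 and -0.68 and TEFM, an elongation factor, -1.13, -1.11 and -0.67. Of 73 mitochondrial ribosome genes, 21, 35 and 30 fell and 0 rose, led at 72 h by MRPS10 (-1.46), MRPL12 (-1.27), MRPS5 (-1.21) and MRPL19 (-1.03). Of 26 import genes, 11, 14 and 14 fell and 0 rose, led by the processing peptidase PMPCA (-1.49) and the chaperones HSPD1 (-1.27) and HSPA9 (-1.16) and followed by TIMM44 (-1.09).

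Of 15 nuclear regulators of respiratory genes, 2, 1 and 1 fell and 0, 3 and 0 rose. Of all genes, 6.30%, 10.0% and 11.0% fell and 4.26%, 8.01% and 8.73% rose. PPRC1, a coactivator related to PGC-1alpha, gave -1.89, -1.34 and -0.64, and MYC fell at 12 h and did not pass later (-0.65, -0.19 and 0.42). GABPA, a subunit of nuclear respiratory factor 2, CREB1 and SP1 rose at 24 h, by 0.61, 0.82 and 0.89, which became 0.0109, 0.218 and 0.289 with the poly-A scaling. For these lists, rises at an unadjusted limma p under 0.05 numbered 0 at each time in the mitochondrial DNA list, 3, 4 and 2 in the ribosome list and 1, 1 and 0 in the import list, and the analysis of variance called 0 rises in each. Whether any list differs from the subunits was not tested.

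**Figure D5:**
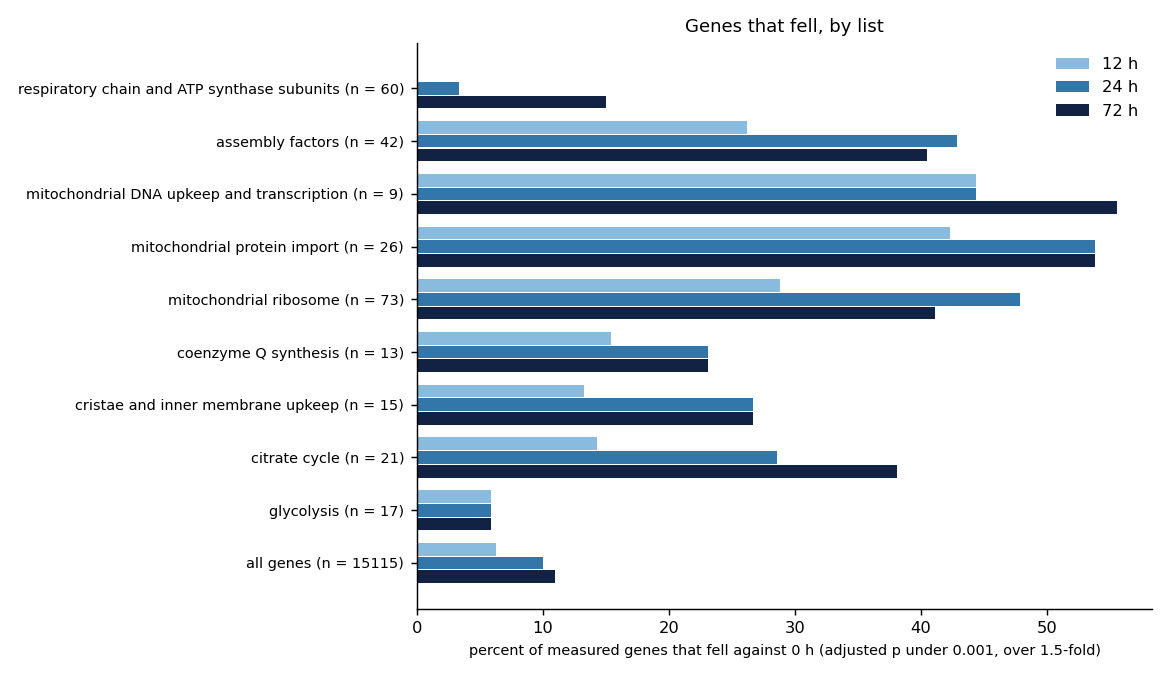
Percent of the measured genes that fell against 0 h at 12, 24 and 72 h (horizontal axis, adjusted p under 0.001 and over 1.5-fold) for the subunits, for 8 lists of mitochondrial and energy genes and for all genes (vertical axis, with the number measured). The subunits are at 0.0, 3.33 and 15.0%, the assembly factors at 26.2, 42.9 and 40.5%.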

How the data were processed

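RNA of 12 cultures was measured on 1-colour Affymetrix arrays. The deposited table holds log2 expression values per probe set, which the authors made in Partek by a workflow named gcRMA in the methods and RMA in the labels (RMA background correction, quantile normalisation, median polish). Quantile normalisation removes shifts common to most transcripts. Of 43035 probe sets, 111 controls were left out and 42924 fitted. Genes were named through the platform annotation, in which 29254 probe sets had 1 symbol, 439 several and 13231 none (the latter 2 kinds unnamed here). limma 3.58.1 in R 4.3.3 fitted 1 mean per time (residual df 8, prior df 4.179), with Benjamini-Hochberg adjustment and the limits of 0.001 and 1.5-fold from the methods. Members and lists were chosen with earlier results of these data known. Genes named were the called members, the extremes of each complex, core subunits, paralogues and the largest called changes of other lists. Other genes are named for completeness of the counts. The scripts were tested on simulated data. Same-numbered arrays deviated from their group means with correlations of -0.3288 to 0.4111 over 18 pairs, and arrays of other numbers reached 0.4614. Replicate 1 had the lowest mean of the poly-A controls at each time. Whether the numbers mark a pairing or a batch is not known, and the main fit used none. The number of arrays (3 per time) limits the precision. Alternatives covered the limits, probe set choice, dim genes, array scaling, the test and each array left out.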

Additional observations from a re-analysis of the deposited data

Results flagged for a closer look

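For 4 members the change at 72 h differed from that at 24 h by a direct limma test between these times, past an adjusted p of 0.001 and 1.5-fold. The difference was -1.01 for COX7A1 (SE 0.0836, adjusted p = 4.36e-06), whose arrays of 24 h lay above and those of 72 h below those of 0 h. It was -0.77 for NDUFA10 (SE 0.0676, adjusted p = 6.95e-06), -0.73 for NDUFS1 (SE 0.0701, adjusted p = 1.41e-05) and -0.60 for NDUFS8 (SE 0.0599, adjusted p = 1.82e-05), and in each of these the 3 arrays of 72 h lay below the 3 of 24 h. Groups of 3 arrays are too small for a test of single outlying arrays.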

How the results depend on the processing

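Alternatives gave 610 values for 28 results (counts of members called, and medians of all members and of each complex). Of these values, 519 stayed within the limits set for them and 91 moved. Counted apart were 60 values, 1 for each comparison of each member called in at least 1 comparison. Of these, 0 turned from a call in 1 direction to a call in the other under any alternative. The remaining members were not followed singly. Medians that changed sign are given below. The replicate block gave 9 falls at 72 h and changed no call, though whether the replicate numbers pair the arrays is not known. With no fold threshold, 4 members were higher and 3 lower at 12 h, 4 and 11 at 24 h, 1 and 27 at 72 h, 4 lower at 24 h against 12 h, and 1 higher and 8 lower at 72 h against 24 h. With a limit of 2-fold, 0 rose at 12 h, 0 fell at 24 h, 1 fell at 72 h and 1 fell at 72 h against 24 h.

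With equal array medians, the median over all members was -0.0487, -0.177 and -0.304 at 12, 24 and 72 h, that of complex II -0.00273, -0.0744 and -0.214, that of complex III -0.173, -0.341 and -0.496, and that of complex V -0.0813, -0.218 and -0.343. With cyclic loess, complexes III and V were at -0.284 and -0.16 at 24 h, and at 72 h all members were at -0.209 and complexes I to V at -0.134, -0.123, -0.418, -0.259 and -0.252. With the probe set of largest change, complexes II and III were at 0.125 and -0.195 at 12 h, III and V at -0.363 and -0.21 at 24 h, and all members, I, III, IV and V at -0.353, -0.273, -0.604, -0.401 and -0.358 at 72 h, with 1 fall at 24 h against 12 h. With the mean of all probe sets, II and III were at 0.0763 and -0.167 at 12 h, all members, I and II at -0.078, -0.0292 and 0.0342 at 24 h, and II and III at -0.132 and -0.429 at 72 h. With probe sets of unique type only (37 members), III was at -0.213 at 12 h, I and III at -0.0517 and -0.356 at 24 h, and all members, II and III at -0.234, -0.154 and -0.408 at 72 h, with 5 falls at 72 h and 1 at 24 h against 12 h.

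With the poly-A scaling, chosen after seeing the data, 3, 44 and 42 members fell at 12, 24 and 72 h, 8 at 24 h against 12 h and 2 at 72 h against 24 h. No count over all genes was made on this scale. All members and complexes I to V were then at -0.308, -0.297, -0.262, -0.432, -0.148 and -0.341 at 12 h, at -0.748, -0.731, -0.645, -0.911, -0.664 and -0.789 at 24 h, and at -0.745, -0.661, -0.655, -0.937, -0.79 and -0.785 at 72 h. The median of complex II changed sign at 12 h with equal array medians and the poly-A scaling and at 24 h with the mean of all probe sets, and that of complex IV at 12 h with the poly-A scaling. At 12 h the medians of all members and of complex I lay near 0 and changed sign under several alternatives (up to 0.00935). The cause of these shifts was not tested.

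Leaving out 1 array at a time gave medians of -0.175 to -0.105, -0.334 to -0.294 and -0.471 to -0.437 for complex III at 12, 24 and 72 h, -0.375 to -0.259 for IV and -0.335 to -0.29 for V at 72 h. It gave 0 to 1 rises at 24 h, the rise being COX7A1 without replicate 2 or 3 of 0 h or of 24 h (0.59 to 0.62), and 6 to 11 falls at 72 h. The calls of NDUFA9, NDUFB4, SDHB and NDUFS8 that these and cyclic loess ended are given with the genes above. With the poly-A scaling NDUFS1 and NDUFS8 missed the adjusted p against 24 h (-0.60 and -0.47), and NDUFS8 at 72 h against 0 h passed with equal array medians (-0.61). Arrays give no counts, and 59 of the 60 members remained when the dimmest 40% of probe sets were left out.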

Other observations

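Other mitochondrial and energy genes gave the following counts. The shares of all genes beside them were 6.30%, 10.0% and 11.0% for falls at 12, 24 and 72 h. For rises they were 4.26%, 8.01% and 8.73%. Of 13 genes for the synthesis of coenzyme Q, the electron carrier between complexes I, II and III, the falls numbered 2, 3 and 3 and the rises 0, 1 and 1 at 12, 24 and 72 h. PDSS1, which makes the side chain, gave -1.21, -1.34 and -1.12, the methyltransferase COQ3 -0.52, -0.77 and -1.06 and COQ10A, a coenzyme Q binding protein, -0.91, -1.11 and -0.85. COQ8A, a kinase-like protein of the same pathway, rose by 1.16 and 1.13 at 24 and 72 h, and by the poly-A scaling it stood at 0.562 and 0.658. Of 15 genes for cristae and inner membrane upkeep, 2, 4 and 4 fell, comprising at 72 h APOOL (-0.75), PHB (-0.67), STOML2 (-0.64) and AFG3L2 (-0.59). Of 9 adenine nucleotide and phosphate carriers and porins, SLC25A31, an ADP/ATP carrier known from testis, rose at all 3 times (1.22, 1.54 and 1.93), and also stood at 0.929, 0.935 and 1.46 with the poly-A scaling. SLC25A5, a widely used ADP/ATP carrier, gave -0.064, -0.62 and -0.77 and fell at 24 and 72 h. In the citrate cycle, 3, 6 and 8 of 21 genes fell, led at 72 h by DLAT (-1.63), IDH3A (-1.28), PCK2 (-1.16) and PDHX (-1.02). Of 17 glycolysis genes, 1 fell at each time, which was PFKP (-0.70, -0.98 and -0.95), and ALDOC rose at 24 h (0.62).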
